A study of Homo sapiens with 12 samples.

Results

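The 10 immediate early genes FOS, FOSL1, JUN, JUNB, ATF3, EGR1, KLF6, IER2, IER3 and DUSP1 were followed by RNA-seq in A549 cells, an epithelial line from a human lung adenocarcinoma. They are the rows of the deposited expression table with these symbols, 10 of 25365 names. Wild-type (WT) and PARP3-/- cells were kept for 24 h either in vehicle (DMSO) or in 1 µM pyridostatin, a small molecule that stabilizes G quadruplex DNA, and each of the 4 groups had 3 libraries that the labels describe as biological triplicates. The study's methods describe making homozygous deletions by transient expression of Cas9 with guides on either side of the deleted stretch, here in the first exon of PARP3, followed by puromycin selection and cloning by serial dilution. The number of clones behind the PARP3-/- libraries is not stated, so loss of PARP3 and differences between a cloned line and WT cells cannot be told apart. Values are FPKM, fragments per kilobase of transcript relative to the mapped reads of the library, which are scaled for transcript length and so can be set side by side between genes.

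Immediate early genes are transcribed within minutes of a stimulus such as serum, a growth factor or cell stress, without new protein synthesis, from promoters that are bound in advance. Signalling through the ERK, JNK and p38 kinases activates the factors on them, among them serum response factor with its ELK partners and the CREB and ATF proteins, and the transcripts are then destroyed quickly by proteins such as ZFP36 that bind their 3' ends. FOS, FOSL1, JUN, JUNB and ATF3 encode basic leucine zipper proteins that pair into AP-1 and related complexes. EGR1 and KLF6 encode zinc finger transcription factors, IER2 a small nuclear regulator, IER3 a stress-responsive survival factor, and DUSP1 a phosphatase that switches the stress kinases and ERK off again. Some of them, ATF3 among them, are also targets of p53, which A549 cells have in wild-type form. RNA taken 24 h after a treatment starts does not sample that early peak.

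Promoter sequence was read from RefSeq (GRCh38.p14) for 8 of the 10 genes, all but FOSL1 and IER3, over the 250 bases before each transcription start, on both strands. Of the sequence elements searched, those that bear on how these genes are switched on are shown, with the element in capitals. Within these 250 bases only EGR1 held exact matches to the serum response element, the binding site of serum response factor, and it held 2 of them. Such a match was in 1.16% of 35116 RefSeq promoters. Sites farther upstream or with a mismatch were not searched, so the other genes, FOS among them, are not shown to lack the element. The stretch lies at chr5:138465354-138465425 on the plus strand, 125 to 54 bases before the start.
EGR1: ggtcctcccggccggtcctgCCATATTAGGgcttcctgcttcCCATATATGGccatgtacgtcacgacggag

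The promoters of JUN, ATF3, DUSP1 and KLF6 shared the sequence TGACNTCA, the type of element bound by CREB, ATF and JUN-ATF dimers. It was present before a start of 4 of the 8 genes and in 6.87% of all promoters, which are counted by start. It was searched for after these sequences had been seen. The stretches are at chr1:58784087-58784134 on the minus strand for JUN, chr1:212565264-212565311 on the plus strand for ATF3 (before the more upstream of its 2 RefSeq starts), chr5:172771293-172771340 on the minus strand for DUSP1 and chr10:3785354-3785401 on the minus strand for KLF6.
JUN: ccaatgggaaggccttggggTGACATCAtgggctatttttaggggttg
ATF3: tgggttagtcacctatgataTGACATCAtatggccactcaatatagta
DUSP1: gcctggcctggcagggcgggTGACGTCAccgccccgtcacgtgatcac
KLF6: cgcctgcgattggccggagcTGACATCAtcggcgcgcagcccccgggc

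Because pyridostatin binds G quadruplexes, the same windows were searched for 4 runs of at least 3 G with loops of 1 to 7 bases. EGR1 (chr5:138465244-138465321, plus strand) and KLF6 (chr10:3785315-3785377, minus strand) held such a stretch, as did 23.5% of all promoters. The shorter AP-1 site TGANTCA, which does not occur inside TGACNTCA, was in no window of the 8 genes and in 6.57% of all promoters. TATAAA was in ATF3 (before the more downstream start), DUSP1, FOS and JUNB and in 10.7% of all promoters. These matches describe the windows and not occupied sites.
EGR1: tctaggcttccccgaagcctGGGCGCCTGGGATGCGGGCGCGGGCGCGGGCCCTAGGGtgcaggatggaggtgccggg
KLF6: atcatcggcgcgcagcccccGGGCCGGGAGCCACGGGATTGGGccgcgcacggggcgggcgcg

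PARP3 RNA was not lower in the libraries labelled PARP3-/- (4.41 FPKM against 3.73 in WT with vehicle, 4.58 against 3.79 with pyridostatin, exact two-sided permutation p = 0.1 each, the smallest 3 against 3 libraries allow), so the RNA level does not check the labels. A deletion within an exon need not lower it. Depth is not given with FPKM; the steps between low values put it at approximately 21600000 to 31200000 reads per library. All 6 epithelial markers were above 1 FPKM on average (KRT8 3036 FPKM), whereas 5 of 6 fibroblast and 5 of 6 blood and endothelial markers were below it, the exceptions being COL1A1 (1.08 FPKM) and CD14 (4.29 FPKM). The summed fibroblast markers were 0.664 to 0.975 FPKM in WT and 1.505 to 1.79 FPKM in PARP3-/- libraries with vehicle, and 0.837 to 1.07 and 1.66 to 2.04 FPKM with pyridostatin. The summed blood and endothelial markers were 3.54 to 4.60 and 5.14 to 6.60 FPKM with vehicle, and 2.92 to 3.49 and 4.66 to 5.22 FPKM with pyridostatin. Most of these sums came from COL1A1 and CD14 (3.76 FPKM in WT and 5.80 in PARP3-/- cells with vehicle). With vehicle LUM (0.063 in WT and 0.322 FPKM in PARP3-/- cells) and CDH5 (0.173 and 0.285 FPKM) were also higher in PARP3-/- cells. COL3A1 (0.025 and 0.0098 FPKM) and PECAM1 (0.020 and 0.0032 FPKM) were near 0 and lower in PARP3-/- cells. Among the epithelial markers KRT19 averaged 90.5 FPKM in WT and 163 in PARP3-/- cells with vehicle, EPCAM 2.12 and 1.16, and CDH1 14.04 and 10.2. The part of these differences in the genotype results was not tested.

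Of the 10 genes, 9 measured 3.75 FPKM or more in every library and IER3 was listed at 0 in all 12. The 20 protein-coding genes nearest to IER3 on chromosome 6, among them TUBB and FLOT1, were likewise listed at 0 in every library, as was an unbroken run of 122 protein-coding genes there. TUBB encodes a tubulin that dividing cells use, so the 0 of IER3 is a listing in this table and no level is given for it.

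DUSP1 was the most abundant of the 9 transcripts and ATF3 the least. DUSP1 averaged 162 FPKM over the 12 libraries, above 96.1% of the genes tested, and ATF3 averaged 8.44 FPKM, above 43.0% of them. Between these lay IER2 (66.9 FPKM), JUNB (62.7), FOSL1 (62.6), EGR1 (51.6), FOS (50.2), JUN (42.9) and KLF6 (22.6). The order at the ends was the same in all 4 groups: DUSP1 stood apart from the next gene in every library, and JUN, KLF6 and ATF3 followed each other at the bottom with no overlap between JUN and KLF6 or between KLF6 and ATF3. With vehicle, all neighbours between DUSP1 and KLF6 in the order of means overlapped down to JUN, in WT and in PARP3-/- cells, so that their order there is within the spread of the libraries. With pyridostatin IER2 stood above FOSL1 and EGR1 above JUN in WT cells, and FOSL1 above IER2 and JUNB above EGR1 in PARP3-/- cells. ATF3 was the most variable, with a highest library 3.98 times its lowest, and IER2 the least, at 1.30 times.

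**Figure D1:**
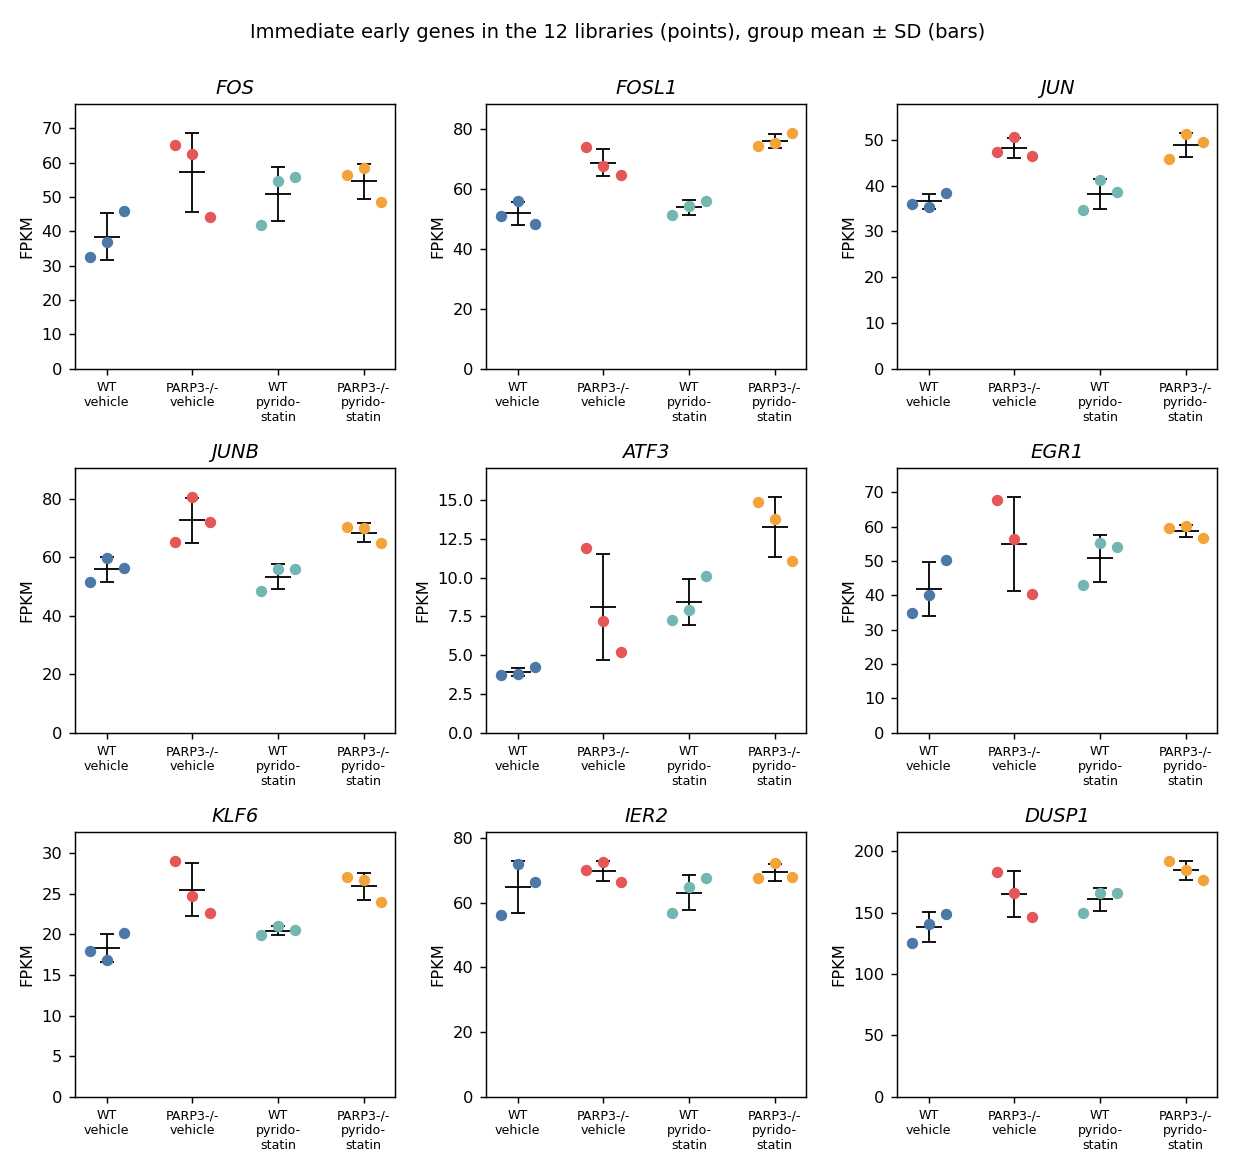
FPKM of the 9 detected immediate early genes (y axes, each from 0) in the 4 groups (x axes); points are the 3 libraries of a group and bars the group mean ± SD. FOSL1, JUN, JUNB and KLF6 sit higher in both PARP3-/- groups than in both WT groups with no overlap, ATF3 is lowest in WT cells with vehicle (3.75 to 4.22 FPKM), and IER2 has the smallest ratio of highest to lowest library (56.2 to 72.8 FPKM, 1.30 times).

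The comparison of PARP3-/- with WT cells on vehicle asked whether the level of these genes depends on genotype. The AP-1 subunit genes FOSL1, JUN and JUNB rose in the PARP3-/- libraries by 1.30 to 1.33 times, KLF6 by 1.39 times and ATF3 by 2.07 times, whereas FOS and, of a separate list, 10 other AP-1 and ATF subunits did not pass. Differences are given as log2 changes of FPKM + 1 from limma, fitted once to all 4 groups for the 11881 genes that averaged 1 FPKM or more, and a gene was called at a Benjamini-Hochberg adjusted p under 0.05. Of the 9 genes, 5 were called higher and 0 lower, where 6.40% of all genes tested were called higher and 3.01% lower. All 9 differences were above 0 and their median was 0.39, beside 0.015 over all genes. In 5 of the 9 every PARP3-/- library lay above every WT library, which was the case for 15.0% of all genes. At an unadjusted p under 0.05 limma gave 7 higher and 0 lower, where 21.6% of all genes passed in either direction. In bulk RNA, more cells that express a gene and more RNA per cell cannot be told apart.

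FOSL1 encodes FRA-1, an AP-1 subunit without a transactivation domain of its own that is common in carcinoma cells. With vehicle it measured 51.0, 56.0 and 48.3 FPKM in WT and 73.8, 67.6 and 64.7 FPKM in PARP3-/- libraries. Every PARP3-/- value was above every WT value, and FOSL1 rose by 0.40 (SE 0.063, adjusted p = 0.00210), or 1.33 times between group means.

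JUN, the defining partner of FOS proteins in AP-1, measured 36.0, 35.2 and 38.4 FPKM in WT and 47.3, 50.6 and 46.5 FPKM in PARP3-/- libraries. These groups did not overlap either, and the spread within each was under 5% of its mean (coefficients of variation 4.46% and 4.54%). JUN rose by 0.39 (SE 0.065, adjusted p = 0.00342), or 1.32 times.

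JUNB, a JUN relative that forms weaker activating dimers, measured 51.4, 60.0 and 56.4 FPKM in WT and 65.4, 80.8 and 72.2 FPKM in PARP3-/- libraries. Every PARP3-/- library lay above every WT library. JUNB rose by 0.37 (SE 0.085, adjusted p = 0.0195), or 1.30 times, and its call was lost without WT vehicle replicate 1 (adjusted p = 0.0683), WT vehicle replicate 3 (0.0524), PARP3-/- vehicle replicate 2 (0.0784) or PARP3-/- vehicle replicate 3 (0.0587).

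KLF6 measured 18.0, 16.8 and 20.2 FPKM in WT and 29.1, 24.8 and 22.7 FPKM in PARP3-/- libraries. The groups did not overlap, and KLF6 rose by 0.45 (SE 0.088, adjusted p = 0.00786), or 1.39 times. Its call held in 19 of the 20 alternative fits, among them all 12 with 1 library left out (highest adjusted p = 0.0833).

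ATF3, a stress-induced factor that represses or activates according to its partner, measured 3.75, 3.79 and 4.22 FPKM in WT and 11.9, 7.19 and 5.23 FPKM in PARP3-/- libraries. The WT libraries were close together while the PARP3-/- libraries were widely spread (coefficient of variation 42.3%), all of them above WT. ATF3 rose by 0.82 (SE 0.22, adjusted p = 0.0405), or 2.07 times between means. Without PARP3-/- vehicle replicate 1, the highest library, the difference was 0.54 (adjusted p = 0.0808), and the call held for 3 of the 12 libraries left out in turn.

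FOS, EGR1, DUSP1 and IER2 did not pass. FOS measured 32.4, 36.9 and 45.9 FPKM in WT and 65.1, 62.5 and 44.0 FPKM in PARP3-/- libraries, so 2 of the PARP3-/- libraries lay far above WT and the other within it. Its difference was 0.56 (95% interval 0.18 to 0.93, adjusted p = 0.0680), larger than that of JUN but with an SE of 0.17 against 0.065. EGR1 had the same shape, 34.9, 40.2 and 50.3 FPKM in WT against 67.9, 56.5 and 40.5 FPKM, with a difference of 0.37 (95% interval -0.022 to 0.76, adjusted p = 0.262).

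DUSP1 measured 125, 141 and 149 FPKM in WT and 183, 166 and 146 FPKM in PARP3-/- libraries, a difference of 0.25 (95% interval 0.062 to 0.44, adjusted p = 0.104). For IER2 the difference was 0.11 (95% interval -0.083 to 0.30, adjusted p = 0.537). In both genes the groups overlapped.

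With pyridostatin present, PARP3-/- and WT cells were compared again, with group means from libraries that the vehicle comparison did not contain. Both comparisons used the same estimate of the spread, taken from all 12 libraries, so they are not independent. FOSL1, JUN, JUNB and KLF6 were again called higher, 4 of 9 genes with 0 lower, where 7.07% of all genes were called higher and 3.85% lower. These 4 are 4 of the 5 called with vehicle. At an unadjusted p under 0.05 limma gave 6 higher and 0 lower, where 24.0% of all genes passed in either direction. All 9 differences were above 0 with a median of 0.32, beside 0.0083 over all genes. In 8 of the 9 genes, all but FOS, every PARP3-/- library lay above every WT library, as did 19.3% of all genes.

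FOSL1 measured 51.1, 54.2 and 56.0 FPKM in WT and 74.1, 75.4 and 78.7 FPKM in PARP3-/- libraries with pyridostatin. This was the clearest separation among the members, with a difference of 0.49 (SE 0.063, adjusted p = 5.24e-04), or 1.41 times. FOSL1 and JUN kept their genotype calls with either treatment in all 20 of the alternative fits.

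JUN measured 34.7, 41.2 and 38.7 FPKM in WT and 45.9, 51.2 and 49.5 FPKM in PARP3-/- libraries (difference 0.35, SE 0.065, adjusted p = 0.00583). JUNB measured 48.4, 56.0 and 56.0 FPKM in WT and 70.5, 70.2 and 64.8 FPKM in PARP3-/- libraries (0.35, SE 0.085, adjusted p = 0.0227). KLF6 measured 19.9, 21.0 and 20.5 FPKM in WT and 27.0, 26.8 and 24.0 FPKM in PARP3-/- libraries (0.32, SE 0.088, adjusted p = 0.0398). For each of the 3 genes the groups did not overlap, but the JUNB call was lost without WT pyridostatin replicate 1 or PARP3-/- pyridostatin replicate 1 or 2 (adjusted p = 0.0948, 0.0778 and 0.0834), and the KLF6 call held for 5 of the 12 libraries left out in turn.

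ATF3 measured 7.30, 7.92 and 10.1 FPKM in WT and 14.9, 13.8 and 11.1 FPKM in PARP3-/- libraries with pyridostatin. The groups did not overlap, and the difference was 0.60 (95% interval 0.11 to 1.08, adjusted p = 0.1195). Without PARP3-/- vehicle replicate 1, which enters only through the shared estimate of the spread, the adjusted p was 0.0260.

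FOS was the member whose genotype difference was smallest here, at 41.9, 54.7 and 55.9 FPKM in WT and 56.5, 58.4 and 48.7 FPKM in PARP3-/- libraries (0.11, 95% interval -0.27 to 0.48, adjusted p = 0.775). The groups overlapped. EGR1 (0.22, 95% interval -0.18 to 0.61, adjusted p = 0.520), DUSP1 (0.20, 0.0069 to 0.39, adjusted p = 0.191) and IER2 (0.14, -0.055 to 0.33, adjusted p = 0.387) did not pass although their libraries did not overlap.

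**Figure D2:**
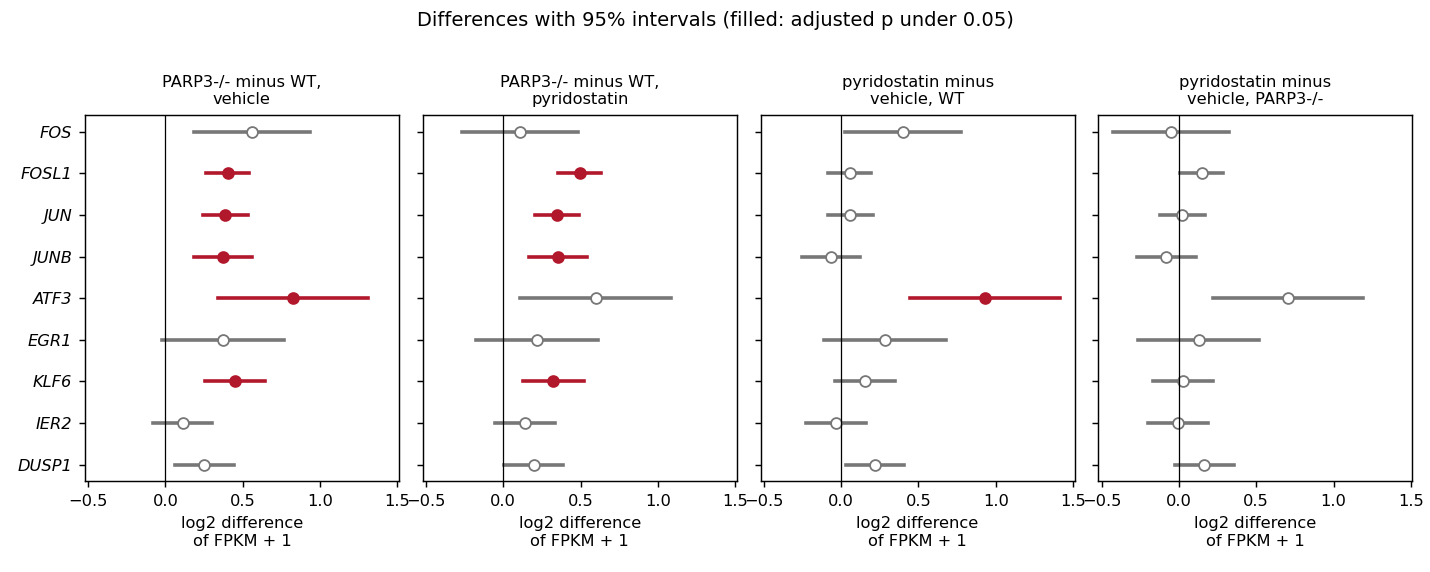
Differences of log2(FPKM + 1) with 95% intervals (x axes) for the 9 detected genes (y axis) in the 4 comparisons; filled red points have an adjusted p under 0.05. All 9 points lie to the right of 0 in both genotype panels, while in the pyridostatin panels most lie near 0 and ATF3 lies farthest right at 0.93 in WT and 0.71 in PARP3-/- cells.

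Pyridostatin against vehicle asked whether these genes answered the G quadruplex ligand after 24 h. In WT cells ATF3 rose and was the single member called: 1 of 9 was higher and 0 lower in limma, where 2.79% of all genes were called higher and 1.38% lower. At an unadjusted p under 0.05 limma gave 3 higher and 0 lower, where 20.3% of all genes passed in either direction. ATF3 went from 3.75, 3.79 and 4.22 FPKM to 7.30, 7.92 and 10.1 FPKM without overlap, a rise of 0.93 (SE 0.22, adjusted p = 0.0423), or 2.15 times between means. The call was narrow, kept for 2 of the 12 libraries left out in turn (adjusted p from 0.00816 to 0.149 over all alternatives). The difference ran from 0.81 to 1.02 with 1 library left out and from 0.89 to 1.08 in the other alternatives.

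DUSP1 also had no overlap between WT groups, at 125, 141 and 149 FPKM with vehicle and 150, 166 and 166 FPKM with pyridostatin (0.22, 95% interval 0.029 to 0.41, adjusted p = 0.188). It and ATF3 were 2 of the 9 members with every pyridostatin library above every vehicle library, where 13.4% of all genes had this. FOS differed by 0.40 (95% interval 0.024 to 0.78, adjusted p = 0.221) and EGR1 by 0.28 (-0.11 to 0.68, adjusted p = 0.407), both with overlapping libraries. The remaining differences were KLF6 0.15, JUN 0.060, FOSL1 0.056, IER2 -0.036 and JUNB -0.065, and the median of the 9 was 0.15, beside 0.0030 over all genes.

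In PARP3-/- cells limma called 0 of the 9 genes in either direction at an adjusted p under 0.05, where 3.05% of all genes were called higher and 2.52% lower. At an unadjusted p under 0.05 there were 2, ATF3 and FOSL1, where 19.6% of all genes passed in either direction. ATF3 went from 11.9, 7.19 and 5.23 FPKM with vehicle to 14.9, 13.8 and 11.1 FPKM, and the groups overlapped because of the highest vehicle library (0.71, 95% interval 0.22 to 1.19, adjusted p = 0.0966). Without that library, PARP3-/- vehicle replicate 1, ATF3 was called (0.99, adjusted p = 0.0124).

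FOSL1 was the 1 member of 9 whose pyridostatin libraries all lay above the vehicle libraries in PARP3-/- cells, at 74.1 to 78.7 against 64.7 to 73.8 FPKM (0.15, 95% interval 0.0080 to 0.29, adjusted p = 0.229), where 16.6% of all genes had this. The other 7 differences ran from -0.082 for JUNB to 0.16 for DUSP1, and the median of the 9 was 0.027, beside 0.0021 over all genes. EGR1 and KLF6, whose promoters hold the G quadruplex stretches printed above, differed by 0.13 (95% interval -0.27 to 0.52) and 0.027 (-0.17 to 0.22) in PARP3-/- cells. In WT cells they differed by 0.28 (95% interval -0.11 to 0.68) and 0.15 (-0.041 to 0.35).

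The 2 pyridostatin comparisons were set against each other by the interaction of genotype and treatment, the difference in PARP3-/- minus that in WT cells. With limma 0 of the 9 genes passed (adjusted p = 0.999 for each), and 0 had an unadjusted p under 0.05. The share called among all genes was 0.00%, with 521 genes (4.39%) at an unadjusted p under 0.05. FOS had the lowest interaction of the members, at -0.45 (95% interval -0.98 to 0.079), ATF3 was at -0.23 (-0.91 to 0.46) and FOSL1 was the highest at 0.091 (-0.11 to 0.29). The genotype and pyridostatin comparisons share control libraries pairwise, so the same vehicle values enter more than 1 of them.

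Within a group, some libraries were high or low for many of the members. In WT cells with pyridostatin replicate 1 was the lowest library for all 9 genes, as it was for 30.3% of all genes tested, and in PARP3-/- cells with vehicle replicate 3 was the lowest for 8 of the 9 (29.6% of all genes) and replicate 1 the highest for 6 (25.9%), although it was the lowest for JUNB. In WT cells with vehicle replicate 1 was the lowest for 6 genes (32.3% of all genes) and replicate 3 the highest for 6 (26.2%). In PARP3-/- cells with pyridostatin replicates 1 and 2 were each the highest library for 4 genes (26.5% and 31.3% of all genes). Replicate 3 was the highest for 1 gene (42.2%) and the lowest for 6 (26.7%), and replicate 1 the lowest for 3 (45.5%). FOS, EGR1 and ATF3 carried most of this spread: PARP3-/- vehicle replicates 1 and 3 deviated from their group mean by 0.33 and -0.40 for EGR1 and by 0.57 and -0.48 for ATF3 on the log2 scale, against 0.10 and -0.08 for FOSL1. These 2 libraries were also the deepest and the shallowest of their group, at approximately 28800000 and 21600000 reads. The part of depth in these deviations was not tested.

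**Figure D3:**
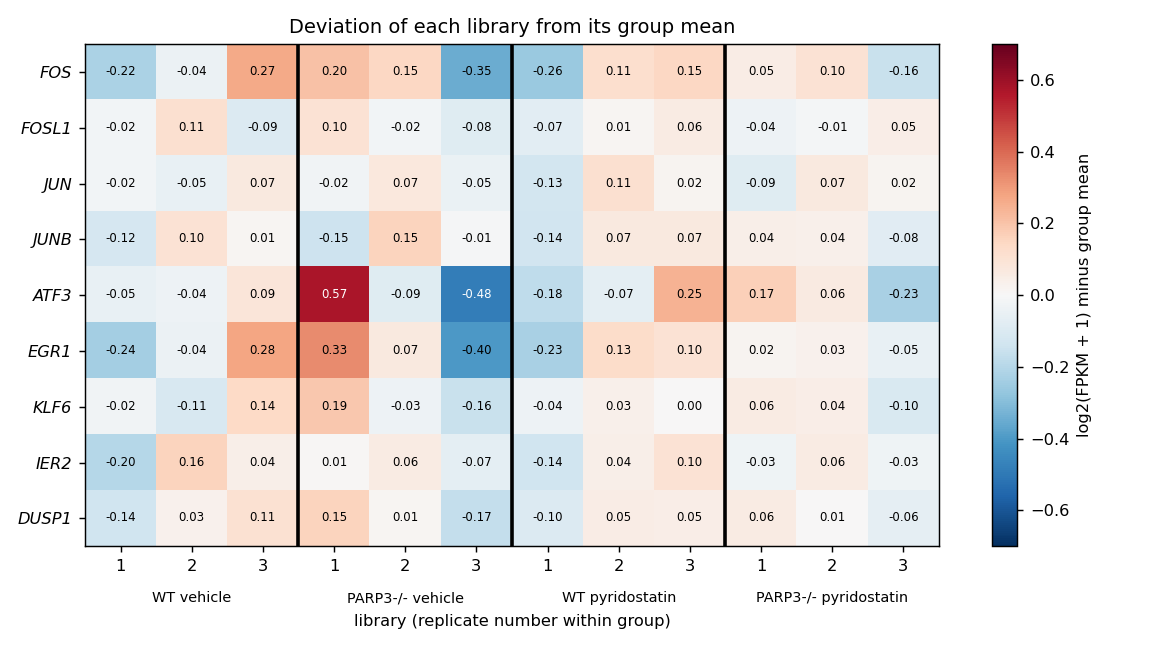
Difference of log2(FPKM + 1) from the group mean for 9 genes (rows) in the 12 libraries (columns, by replicate number within group); red is above and blue below the mean. PARP3-/- vehicle replicates 1 and 3 carry the widest deviations, in ATF3 (0.57 and -0.48) and EGR1 (0.33 and -0.40), and WT pyridostatin replicate 1 is blue in every row.

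The 3 genes whose profile over the 12 libraries came closest to each of the 3 most variable members were other immediate early genes, but several members ranked far from each other. Likeness was measured as the root mean square difference of log2(FPKM + 1), each gene centred on its own mean, against the 11880 other genes tested. The nearest to FOS were EGR1 (0.09996), ZFP36 (0.114) and DUSP1 (0.159), where the median gene was at 0.306. The nearest to EGR1 were ZFP36 (0.0987), FOS (0.09996) and DUSP1 (0.123), with a median of 0.288. ZFP36 encodes the protein that marks such transcripts for decay. Of the other members, KLF6 ranked 5th and JUN 18th from FOS, but IER2 263rd, JUNB 337th, FOSL1 348th and ATF3 11273rd. The measure includes the size of the differences, and both medians were close to the SD of the member itself (0.305 for FOS and 0.285 for EGR1). The libraries share their groups, so likeness describes group differences and library spread together.

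For ATF3 the nearest genes were CTGF (0.234), a secreted matricellular protein and early serum-response gene, FOSB (0.250), an AP-1 subunit, and GADD45A (0.300), a DNA damage-induced gene that p53 also reaches, with a median gene at 0.605. The SD of ATF3 itself was 0.626, and the other members ranked from 35th (EGR1) to 3008th (IER2) from it. FOSB measured 2.61, 3.31 and 4.14 FPKM in WT and 11.7, 7.31 and 3.95 FPKM in PARP3-/- libraries with vehicle, the same order of the 3 PARP3-/- libraries as ATF3. With pyridostatin it measured 4.52, 5.05 and 6.45 FPKM in WT and 9.45, 9.18 and 6.63 FPKM in PARP3-/- libraries. FOSB passed in none of the comparisons (genotype difference 0.91 with vehicle, SE 0.29, adjusted p = 0.0798).

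**Figure D4:**
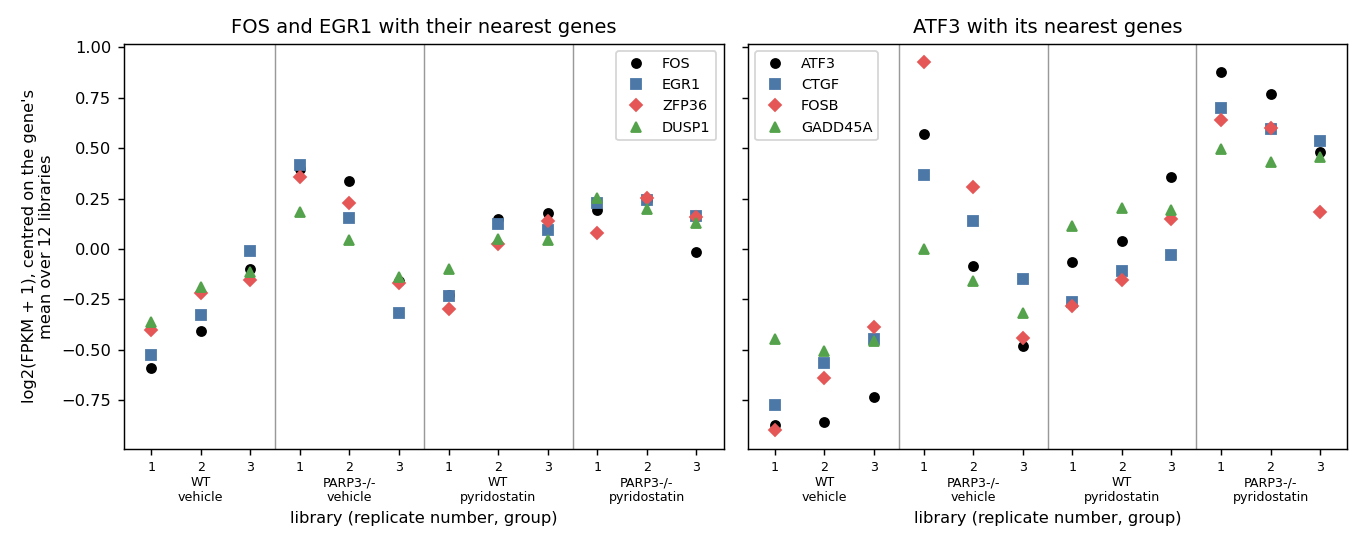
log2(FPKM + 1) centred on each gene's mean (y axis) in the 12 libraries (x axis, by group and replicate number), for FOS, EGR1, ZFP36 and DUSP1 (left) and for ATF3, CTGF, FOSB and GADD45A (right). On the left the 4 genes follow a similar course with gaps between them (from -0.59 for FOS to -0.36 for DUSP1 in WT vehicle replicate 1), and on the right all 4 are low in WT vehicle libraries and high in PARP3-/- pyridostatin libraries.

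Other genes of the same system were taken as lists by role. The other immediate early regulators are mostly feedback proteins, decay factors and secreted ligands. In PARP3-/- cells with vehicle 13 of the 23 tested were higher and 1 lower (median 0.28). With pyridostatin 12 were higher and 0 lower (median 0.27). Among all genes 6.40% were called higher and 3.01% lower with vehicle, and 7.07% and 3.85% with pyridostatin. SOCS3, a feedback inhibitor of cytokine receptors, rose from 10.9 ± 0.251 to 17.2 ± 0.324 FPKM (SD, n = 3) with vehicle, by 0.62 on the log2 scale (adjusted p = 1.50e-05). MCL1, a survival protein of the BCL2 family, rose by 0.62 (adjusted p = 4.98e-04), SGK1, a serum-induced kinase, by 0.61 (adjusted p = 2.43e-04) and TNFAIP3, a brake on NF-kB, by 0.43 (adjusted p = 8.84e-04). The gene lower with vehicle was IER5L (-0.47, adjusted p = 0.00640), named after its value was seen.

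The next list holds genes that ERK signalling induces, some of which damp it, and shares PHLDA1 with the regulators. Of its 13 genes, 4 were higher and 0 lower in PARP3-/- cells with vehicle (median 0.14), and 5 and 0 with pyridostatin (median 0.12). Among all genes 6.40% were called higher and 3.01% lower with vehicle, and 7.07% and 3.85% with pyridostatin. SPRY2, an inhibitor of receptor tyrosine kinase signalling, rose by 0.72 with vehicle (6.64 ± 0.414 to 11.6 ± 0.290 FPKM, SD, n = 3, adjusted p = 4.54e-05), and by 0.66 with pyridostatin (adjusted p = 9.69e-05). DUSP6, the phosphatase of ERK in the cytoplasm, rose by 0.51 with vehicle (adjusted p = 4.22e-04) and by 0.47 with pyridostatin (adjusted p = 7.46e-04), EPHA2, a receptor kinase gene downstream of ERK, by 0.21 and 0.22 (adjusted p = 0.00171 and 0.00119), and PHLDA1 by 0.38 and 0.43 (adjusted p = 0.00422 and 0.00191).

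Among the dual-specificity phosphatases other than DUSP1, 3 of 9 were higher and 1 lower in PARP3-/- cells with either treatment (medians 0.11 and 0.10). The shares of all genes called were 6.40% higher and 3.01% lower with vehicle, and 7.07% and 3.85% with pyridostatin. DUSP4, DUSP5 and DUSP6 are also in the ERK feedback list. DUSP6, DUSP7, also an ERK phosphatase, and DUSP10, which acts on p38 and JNK, rose by 0.51, 0.47 and 0.51 with vehicle, and DUSP16, a JNK phosphatase, fell by 0.30 (adjusted p from 4.22e-04 to 0.00153). With pyridostatin DUSP10, DUSP6 and DUSP7 rose by 0.51, 0.47 and 0.46 and DUSP16 fell by 0.32 (adjusted p from 6.21e-04 to 9.13e-04).

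Each of the next 4 lists had at most 1 gene called in a genotype comparison. The shares of all genes called were 6.40% higher and 3.01% lower with vehicle, and 7.07% and 3.85% with pyridostatin. Among 10 other AP-1 and ATF subunits, 0 passed with vehicle in limma, and with pyridostatin BATF3 was higher (0.41, adjusted p = 0.0410). With vehicle 3 of them were higher and 1 lower at an unadjusted p under 0.05, where 21.6% of all genes passed in either direction. Among 11 other immediate early transcription factors ID1 was lower with vehicle (-0.33, adjusted p = 0.0175) and KLF2 higher with pyridostatin (0.41, adjusted p = 0.00574). Of 23 genes for kinases and factors that act on immediate early promoters, from EGFR and the RAS and RAF genes to SRF and CREB1, ELK3 was higher with vehicle (0.49, adjusted p = 0.0458). With pyridostatin 0 of the 23 passed, and 1 was higher at an unadjusted p under 0.05, where 24.0% of all genes passed in either direction. Of 11 mRNA decay factors ZFP36L1, also among the regulators, was higher with both treatments (0.34 and 0.43, adjusted p = 0.00647 and 0.00147). Medians of these lists lay between -0.015 and 0.082.

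**Figure D5:**
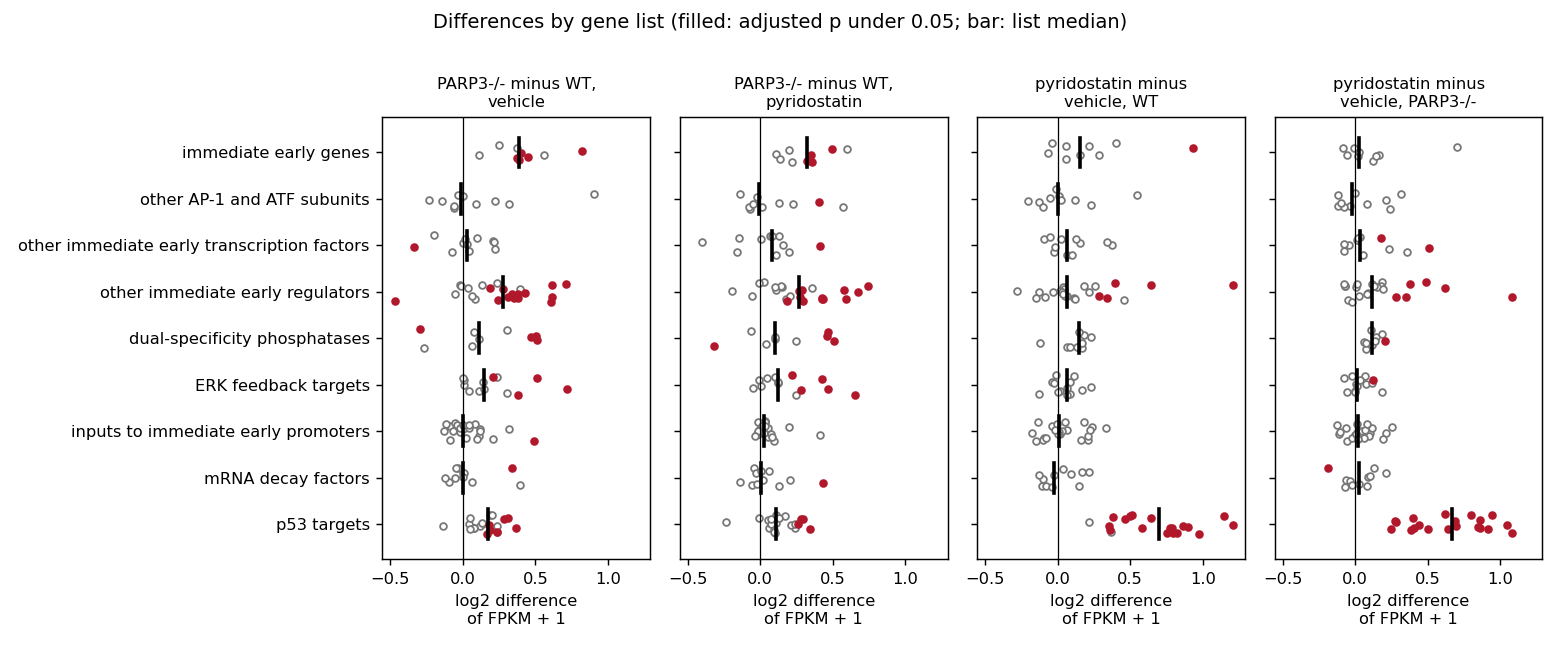
Differences of log2(FPKM + 1) (x axes) for each tested gene of 9 lists (y axis) in the 4 comparisons; filled red points have an adjusted p under 0.05 and black bars are list medians. In the genotype panels the immediate early genes have the highest median (0.39 and 0.32), and in the pyridostatin panels the p53 targets do (0.70 and 0.67).

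The list of p53 targets was set beside the members because ATF3 and some others are reached by p53. Pyridostatin raised 18 of 20 p53 targets in WT (median 0.70) and 20 of 20 in PARP3-/- cells (median 0.67). Of the 9 immediate early genes it raised 1 and 0 (medians 0.15 and 0.027). Among all genes 2.79% were called higher in WT and 3.05% in PARP3-/- cells. CDKN1A, the cell cycle inhibitor p21, rose from 87.0 ± 7.27 to 193 ± 3.40 FPKM in WT and from 100.1 ± 3.90 to 208 ± 8.67 FPKM in PARP3-/- cells (SD, n = 3), by 1.14 and 1.05 (adjusted p = 1.12e-05 and 3.21e-05). BTG2, an antiproliferative gene that is both an immediate early gene and a p53 target, rose by 1.21 and 1.08 (adjusted p = 2.33e-05 and 7.15e-05), SESN2, a stress-induced regulator of growth signalling, by 0.79 and 0.80 (adjusted p = 1.30e-04 and 1.12e-04), FDXR, a mitochondrial reductase, by 0.97 in WT (adjusted p = 1.30e-04) and SESN1, a relative of SESN2, by 0.94 in PARP3-/- cells (adjusted p = 1.42e-04). In the genotype comparisons 7 and 4 of the 20 were higher and 0 lower, with medians of 0.17 and 0.11; PLK3, FAS and GADD45A passed in both.

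Of the other immediate early regulators, pyridostatin raised 5 of 23 in WT cells, namely BTG2, GADD45A, IER5, SGK1 and TNFAIP3, and 6 of 23 in PARP3-/- cells, the same 5 and CTGF, with 0 lower. Among all genes 2.79% were called higher and 1.38% lower in WT cells, and 3.05% and 2.52% in PARP3-/- cells. BTG2 and GADD45A are also in the list of p53 targets. IER5, a regulator of the heat shock response, rose by 0.34 in WT and 0.35 in PARP3-/- cells (adjusted p = 0.00581 and 0.00407), GADD45A by 0.64 and 0.62 (adjusted p = 4.58e-04 and 5.79e-04) and SGK1 by 0.40 and 0.38 (adjusted p = 0.0108 and 0.0121). In the remaining 6 lists limma called 0 of 72 genes for pyridostatin in WT cells. At an unadjusted p under 0.05 there were 12 higher and 4 lower, where 20.3% of all genes passed in either direction. In PARP3-/- cells pyridostatin raised KLF2 (0.51), KLF4 (0.18), DUSP14 (0.21) and EPHA2 (0.13) of these lists and lowered HNRNPD (-0.19), with adjusted p from 0.00405 to 0.0449. For the interaction limma called 0 of the 110 genes of the 8 lists, and 2 had an unadjusted p under 0.05, as did 4.39% of all genes.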

How the data were processed

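Per the labels, total RNA of 12 A549 cultures was made into TruSeq Stranded mRNA libraries and sequenced as single-end 75-base reads on a NextSeq instrument. The submitters' processing notes name bcl2fastq 2.16, STAR 2.5, Cufflinks and the builds hg19 and mm9, without roles. The authors deposited FPKM values, 1 column per library with no pooling; read counts and the annotation were not used here. Values were taken as log2(FPKM + 1) without further scaling. limma 3.58.1 in R 4.3.3 fitted 1 model of the 4 groups without a block (eBayes with a trend) to the 11881 genes averaging 1 FPKM or more, and adjusted p-values are Benjamini-Hochberg over all of them (two-sided). The adjustment covers the genes of each contrast and not the 5 contrasts together. The study's own fold threshold, an absolute log2 change above 1, was not part of a call. The procedure was tested on simulated data with independent noise for each gene. Shifts that many genes of a library share were not simulated. Fold changes on the log2(FPKM + 1) scale understate changes of low genes such as ATF3.

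The members and lists were chosen with earlier results of these data known. Named genes were all members, up to 4 genes of each list and comparison with the smallest adjusted p under 0.05, the 3 genes nearest in profile to each of the 3 most variable members, and PARP3; IER5L, the markers given with values, the 5 regulators raised by pyridostatin, and PLK3, FAS and GADD45A in the genotype comparisons were named after their values were seen. Depth was approximated from the steps between low values with GENCODE transcript lengths, a rough scale. 1 read on a transcript of 1 kb is then 0.0321 to 0.0463 FPKM, below every detected member; counting error was not separated from the spread of the libraries and weighs most on ATF3, the lowest member. Promoters came from RefSeq tables on GRCh38.p14, and IER3's neighbours from RefSeq genes. Alternatives were another pseudocount (0.1), no filter or a minimum average of 5 FPKM, quantile normalization, a common median and eBayes without a trend. Others were only the libraries of a comparison, the replicate block, the fold threshold, and each library left out in turn. Analyses used Python 3.11.15 with numpy 2.4.6, pandas 2.3.3, scipy 1.17.1 and matplotlib 3.10.9.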

Additional observations from a re-analysis of the deposited data

How the results depend on the processing

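Over the alternatives, FOSL1 and JUN kept their genotype calls at an adjusted p under 0.05 in every fit, and ATF3, JUNB and KLF6 did not. Of the members called higher in PARP3-/- cells with vehicle (5), 2 remained with only the libraries of the comparison, and the count ran from 3 to 6 with 1 library left out, 3 without WT vehicle replicate 1 or PARP3-/- vehicle replicate 2. With pyridostatin (4), the count ran from 2 to 5, with 2 without WT pyridostatin replicate 1 or PARP3-/- pyridostatin replicate 1 or 2. The pyridostatin count in WT cells (1, ATF3) was 0 without a filter, with quantile normalization and with the replicate block, and ran from 0 to 1 with 1 library left out, staying at 1 only without PARP3-/- vehicle replicate 1 or 3; in PARP3-/- cells (0) it ran from 0 to 1, with 1 without PARP3-/- vehicle replicate 1. Counts of members also past an absolute log2 change of 1 were 0 in all comparisons. Apart from the alternatives' own construction, the cause was not tested.

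Same-numbered libraries deviated together weakly at most (correlations over genes from -0.120 to 0.216, above 0.1 in 2 of 12 pairs). The correlations were 0.103, 0.091 and 0.066 between genotypes with vehicle, and 0.073, 0.060 and 0.216 between treatments in PARP3-/- cells. They cannot show whether same-numbered samples were prepared together. With the replicate block, 4 members were called higher with vehicle, 3 with pyridostatin, and 0 for pyridostatin in either genotype. ATF3 (adjusted p = 0.0620 with vehicle, 0.0658 for pyridostatin in WT) and KLF6 (0.0618 with pyridostatin) lost their calls under it.

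Differences near 0 changed sign with 1 library left out: FOS from -0.025 to 0.18 between genotypes with pyridostatin; JUNB from -0.12 to 0.0030 and IER2 from -0.13 to 0.043 for pyridostatin in WT; FOS from -0.23 to 0.049, JUN from -0.013 to 0.064, EGR1 from -0.074 to 0.29, IER2 from -0.042 to 0.022 and KLF6 from -0.051 to 0.12 for pyridostatin in PARP3-/- cells; and the interaction of ATF3 from -0.47 to 0.059. With quantile normalization IER2 was at 0.0020 in WT and 0.026 in PARP3-/- cells. Shifting libraries to a common median moved all genes by at most 0.040, and changed the sign of no member in the 4 comparisons.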
